A study of Homo sapiens with 14 samples.

Results

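The long arm of chromosome 14 beyond its pericentromere carried a dense set of Polycomb peaks in DU145 cells, an established line from human prostate cancer. Its members, chosen by the position and number of peaks in these same lists, are all peaks that start on chromosome 14 at or after 20500 kb (hg19), 21455 of the 227479 peaks in the 14 lists. The stretch runs over 86.79 Mb, to the last peak end of any list at 107288175. Chromatin immunoprecipitation with sequencing was done in cells with a stable EED knockdown (sh3 in the titles) and in control cells with a scramble construct (Scr). Both were selected with puromycin, and they share the DU145 background. For each of 7 antibodies there was 1 knockdown library and 1 control library, so no difference between conditions has a replicate check. Every knockdown title has sh3, so loss of EED and other effects of 1 construct cannot be told apart. The labels do not say whether the stable cells were a clone or a pool. The knockdown and control lists held 244 and 1260 members for EED, 130 and 1739 for H3K27me3, 478 and 6387 for RING1A, and 16 and 550 for RING1B. They held 458 and 2992 for BMI1, 623 and 1917 for the rabbit uH2A antibody, and 1350 and 3311 for the mouse uH2A antibody.

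Polycomb proteins keep developmental genes silent through histone marks laid over long stretches of chromatin. PRC2, of which EED is a core subunit, methylates histone H3 at lysine 27, and EED also binds the finished H3K27me3 mark. PRC1 uses the ligases RING1A and RING1B, with partners such as BMI1, to place ubiquitin on histone H2A, which gives uH2A.

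The libraries form 2 sets, which differ in how their lists write chromosome names and in how the labels describe cell growth. EED and the uH2A antibodies make up the first set, and H3K27me3 and the PRC1 proteins the second. Only the second set holds peaks with a height of 0, from 1.83% to 6.39% of peaks on the other autosomes, and none of the members has that height. Both sets hold knockdown and control libraries, and every comparison below stays within an antibody or names the antibodies it joins. The EED antibody, against the targeted protein, gave 1372 peaks genome-wide in knockdown cells and 13082 in control cells. Whole lists held 1372 to 56011 peaks, and read totals are unknown here. Ranges in parentheses are 95% intervals for counting error alone. No input library was used here and DNA copy number was not measured, and the part of either in the densities below was not tested.

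The chromosome was selected on its peak density, so its densities are a description. In all comparisons the other autosomes were counted whole, from position 0 and with their pericentromeres, while chromosome 14 was counted from 20500 kb. The first peaks of chromosomes 13, 15, 21 and 22 lay at 19101876, 20070801, 9431976 and 16053026, and the empty starts lower their densities. Ranks and shares over like spans were not computed. The close ranks below, and differences in share from the other autosomes, may depend on this. In the knockdown lists chromosome 14 held 2.81 peaks per Mb for EED, 1.5 for H3K27me3, 5.51 for RING1A, 5.28 for BMI1, 0.184 for RING1B, 7.18 for uH2A rabbit and 15.6 for uH2A mouse. In the control lists it held 14.5 peaks per Mb for EED, 20.0 for H3K27me3, 73.6 for RING1A, 34.5 for BMI1, 6.34 for RING1B, 22.1 for uH2A rabbit and 38.2 for uH2A mouse. In the knockdown lists it ranked first of 22 autosomes for EED and uH2A mouse, with ranks of 2 for RING1A, 3 for BMI1, 5 for uH2A rabbit, 9 for H3K27me3 and 16 for RING1B. In the control lists it ranked first for EED, RING1A, BMI1 and uH2A mouse, with ranks of 2 for RING1B and uH2A rabbit and 4 for H3K27me3. Set against the median of the 21 other autosomes, density ran from 0.446 times (RING1B) to 9.77 times (EED) in knockdown lists and from 1.68 times (H3K27me3) to 7.09 times (BMI1) in control lists. By peak number the chromosome lay below the median in 1 of the 14 lists, that of RING1B in knockdown cells. By covered length H3K27me3 in knockdown cells was below it too, at 0.736 times (0.615 to 0.873).

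**Figure D1:**
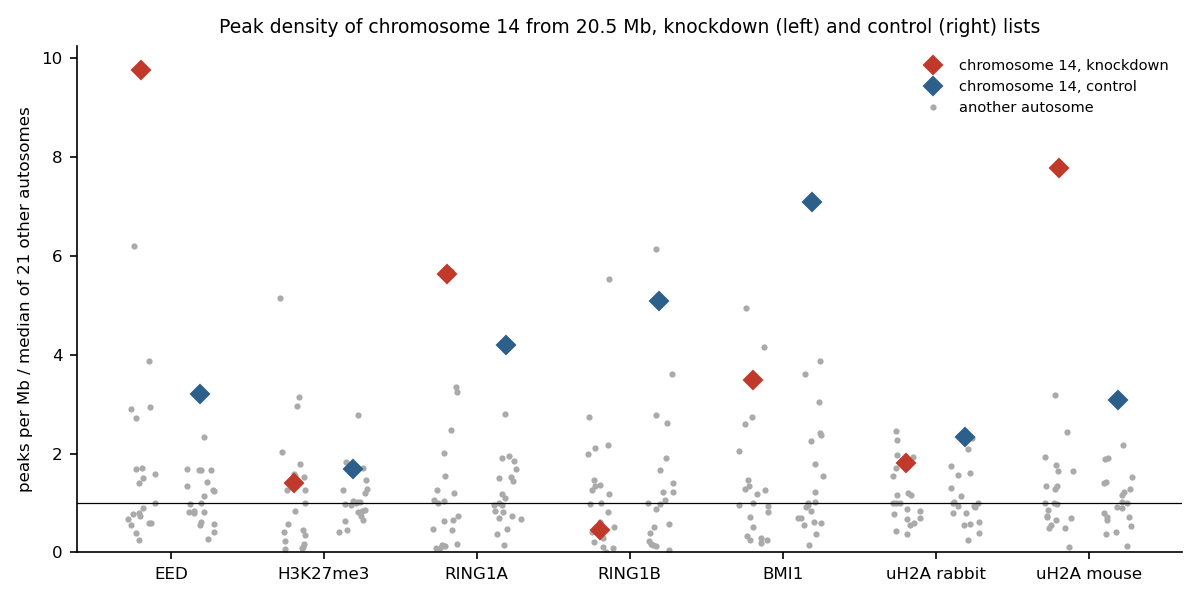
Peaks per Mb of each autosome divided by the median of the 21 other autosomes (vertical axis, linear), for the knockdown list (left) and control list (right) of each antibody. Diamonds are chromosome 14 from 20500 kb and grey points the other autosomes, counted whole. The EED knockdown list stands at 9.77 times the median and the RING1B knockdown list at 0.446 times.

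Peaks also lay on the other side of the limit at 20500 kb. The knockdown lists had 4 (uH2A rabbit) to 271 (BMI1) peaks of chromosome 14 below the limit, and the control lists 2 (H3K27me3) to 332 (BMI1). The last EED peak outside began at 20410126 in the knockdown list and 20482601 in the control list, and the first inside at 28042526 in the knockdown list and 20542676 in the control list. For RING1B the first member was at 31471251 in the knockdown list and 28770526 in the control list, far from the limit.

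Density along the chromosome was uneven and changed in steps. No list had a peak from 25 to 28 Mb. In 5-Mb windows summed over the 7 antibodies, the windows from 30 and 35 Mb held 922 and 514 knockdown peaks and 2818 and 1898 control peaks. The next window, from 40 Mb, held 8 knockdown peaks and 119 control peaks. The windows from 45 and 50 Mb held 313 and 500 knockdown peaks and 940 and 1867 control peaks, and the window from 80 Mb 9 knockdown peaks and 115 control peaks. Towards the end, the window from 100 Mb held 258 knockdown peaks and 2953 control peaks. Dense stretches were thus separated by sparse ones in both conditions. In these sums the end of the chromosome stood out far more in control than in knockdown lists, but antibodies differed. RING1A had 1131 of the control peaks from 100 Mb. Control lists of H3K27me3, BMI1 and RING1B held 208, 244 and 3 peaks there, against 523, 669 and 208 from 30 Mb. For uH2A rabbit the window from 100 Mb was the fullest in both conditions, with 142 knockdown peaks and 460 control peaks.

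Between 5 Mb before and 5 Mb after a 1-Mb boundary, the largest step in the knockdown lists was at 28 Mb for RING1A (172 peaks after, 0 before) and uH2A mouse (240 after, 0 before), and at 47 Mb for H3K27me3 (45 after, 0 before) and BMI1 (136 after, 0 before). In the control lists it was at 28 Mb for EED (133 after, 0 before), RING1A (565 after, 12 before) and BMI1 (527 after, 0 before), and at 38 Mb for H3K27me3 (0 after, 587 before) and RING1B (0 after, 170 before). The other steps of the knockdown lists were at 53 Mb for EED, 30 Mb for RING1B and 40 Mb for uH2A rabbit, and those of the control lists at 79 Mb for uH2A rabbit and 40 Mb for uH2A mouse. On the other autosomes, counted whole, steps of this size were not rare. The number of these autosomes with a larger one ran from 1 to 18 in knockdown lists and from 0 (H3K27me3) to 18 (uH2A mouse) in control lists. Some of the larger ones lay where a chromosome's peaks begin. For RING1A in control cells, chromosome 22 had 0 peaks in the 5 Mb before 16 Mb and 1197 after. Chromosome 14 was entered at 20500 kb, past its own first peak at 19059426. Steps inside an arm were not compared alone.

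Finer edges were placed at 100-kb boundaries, after the data were seen, where the mean log2 ratio of control peaks in the 1 Mb after to the 1 Mb before (plus 0.5) was at least 3 in size. They bound a proximal block from 28 to 37.2 Mb (9.2 Mb) and a distal block from 47.6 to 52.8 Mb (5.2 Mb), and an end segment from 99.3 Mb on. The same rule gave downward edges at 22.5 Mb (mean log2 ratio -3.41) and 78.5 Mb (-3.34), which close no block because no upward edge comes just before them, and both are larger in size than the edge at 52.8 Mb (-3.18). A list's own place for an edge was its largest step of the same sign within 1 Mb of that edge. The edges were chosen on the mean of the 7 control lists, so agreement of these lists in sign and place is partly built in. For the edge at 37.2 Mb the own place was that same 100-kb boundary in 7 of 7 control lists. In the 300 kb before and after it, RING1A had 12 and 0 peaks in the knockdown list and 71 and 2 in the control list, and uH2A mouse had 51 and 0 in the knockdown list and 54 and 0 in the control list. The edge at 47.6 Mb was within 47.6 and 47.7 Mb in the control lists and had a median place of 47.6 Mb in the knockdown lists. Over the 500 kb before and after it, the 7 lists together had 1 and 140 knockdown peaks and 4 and 229 control peaks. The far edge of the distal block was less defined, and 6 of 7 knockdown lists had its sign. Own places ran from 52.3 to 53.2 Mb in the control lists. In the knockdown lists they ran from 51.8 to 53.2 Mb, where 51.8 Mb is the limit of the search and not a located edge. The edge at 28 Mb closes the stretch without peaks, and the block was sparse at first. The 1-Mb windows from 28, 29 and 30 Mb held 31, 22 and 34 knockdown peaks and 110, 143 and 147 control peaks. The window from 31 Mb held 173 and 607, and that from 77 Mb, outside the blocks, 34 and 336. The edges at 37.2 and 47.6 Mb, which face the sparse stretch between the blocks, had the same sign in 7 of 7 knockdown lists. The 7 control lists, on whose mean the edges were chosen, had it too.

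**Figure D2:**
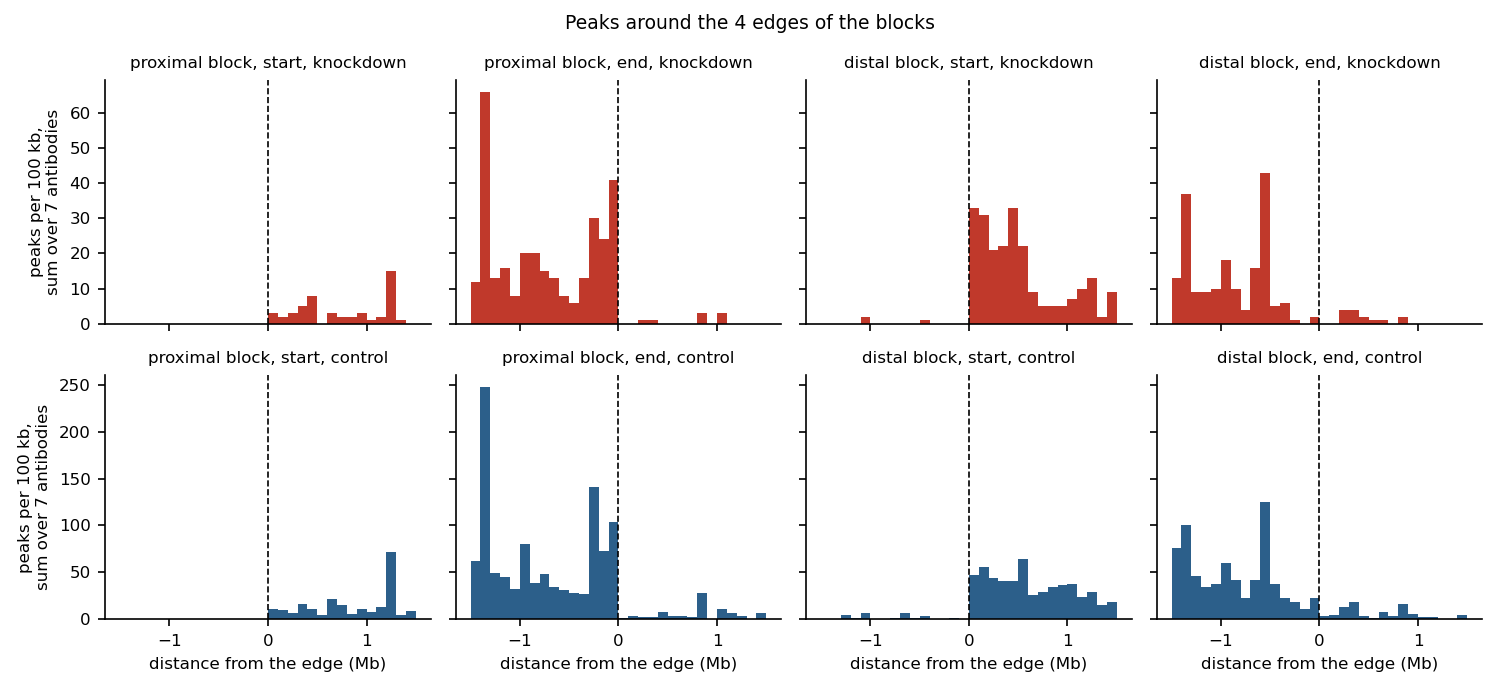
Peaks per 100 kb summed over the 7 antibodies (vertical axis) against distance in Mb from each of the 4 block edges (horizontal axis, dashed line at the edge), knockdown lists above and control lists below with a scale for each row. At the start of the distal block the 500 kb before and after hold 1 and 140 knockdown peaks and 4 and 229 control peaks; the end of the distal block has no such break.

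**Figure D3:**
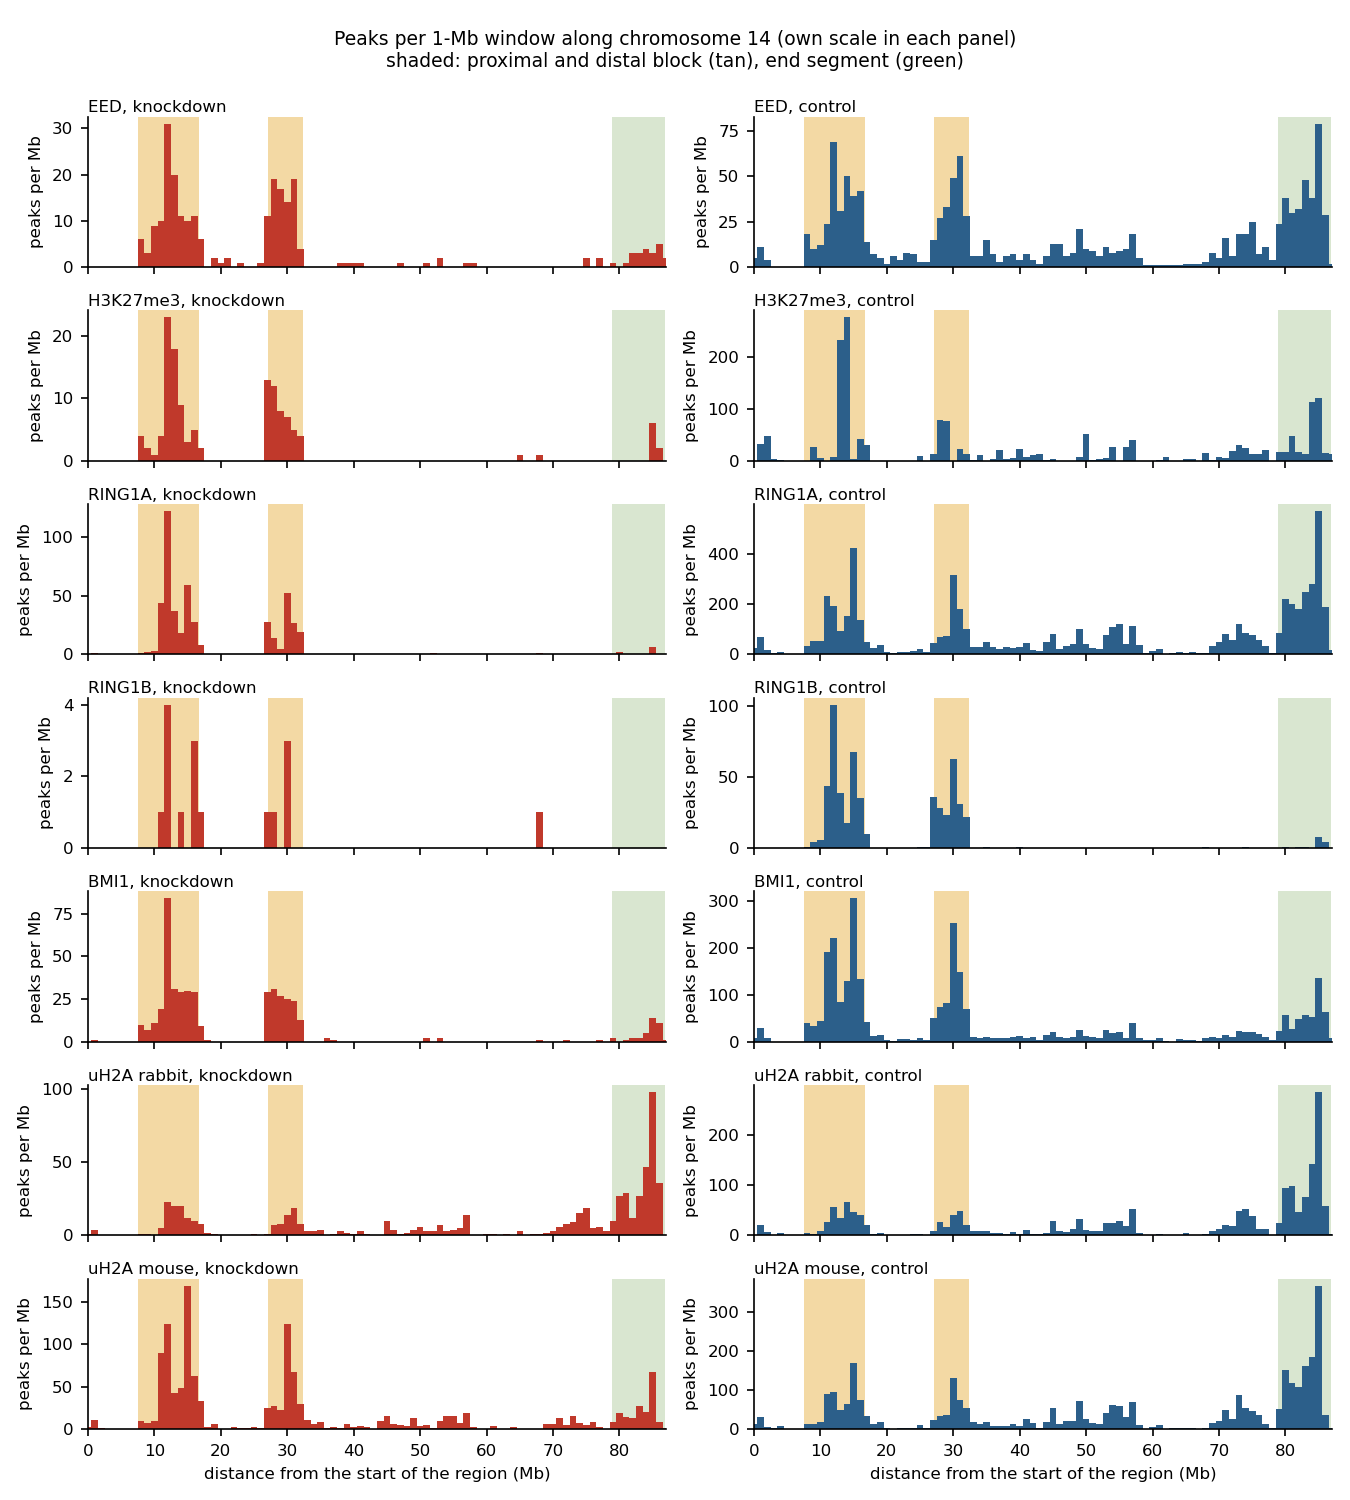
Peaks per 1-Mb window (vertical axis, own scale in each panel) against distance in Mb from the start of the region at 20500 kb, knockdown lists left and control lists right, 1 row for each antibody. Tan marks the proximal and distal blocks and green the end segment; in the knockdown lists of EED, H3K27me3, RING1A and BMI1 the blocks stand out and the end segment is low, while uH2A rabbit has its fullest window in the end segment.

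The blocks cover 14.4 Mb and held different shares of each antibody's members. For RING1B they held 15 of 16 knockdown members and 529 of 550 control members. For BMI1 they held 407 of 458 knockdown members and 1894 of 2992 control members, for RING1A 467 of 478 and 2185 of 6387, and for H3K27me3 120 of 130 and 832 of 1739. For EED they held 201 of 244 knockdown members and 518 of 1260 control members. For uH2A mouse they held 889 of 1350 knockdown members and 963 of 3311 control members, and for uH2A rabbit 156 of 623 and 466 of 1917. Members of the PRC1 and PRC2 lists outside the blocks were thus few in knockdown cells, while the uH2A rabbit list placed most of its members outside the blocks in both conditions. The end segment was denser than the blocks in control cells for 4 antibodies, with 39.7 peaks per Mb against 36.0 in the blocks for EED, 249 against 152 for RING1A, 104 against 32.4 for uH2A rabbit and 147 against 66.9 for uH2A mouse. RING1B was the reverse, with 1.88 peaks per Mb in the end segment and 36.7 in the blocks.

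The knockdown to control ratio of peak number was higher in the blocks than on the rest of the chromosome for EED, H3K27me3, RING1A, BMI1 and uH2A mouse, with intervals that did not overlap. For EED it was 0.388 (0.328 to 0.458) in the blocks, 0.0580 (0.0416 to 0.0788) on chromosome 14 outside them, and 0.0917 on the other autosomes. For RING1A, a ligase of PRC1, it was 0.214 (0.193 to 0.236) in the blocks, 0.00262 (0.00131 to 0.00469) outside them and 0.0635 on the other autosomes. For H3K27me3 it was 0.144 (0.118 to 0.175) in the blocks, 0.0110 (0.00527 to 0.0204) outside them and 0.103 on the other autosomes. Taken apart, the proximal and distal blocks had H3K27me3 ratios of 0.113 (0.0874 to 0.145) and 0.238 (0.171 to 0.326). For each other antibody the intervals of the proximal and distal blocks overlapped. BMI1 stood at 0.215 (0.193 to 0.239) in the blocks, 0.0464 (0.0344 to 0.0615) outside them and 0.297 on the other autosomes, so neither stretch reached the level elsewhere. For EED, H3K27me3, RING1A and BMI1 the interval outside the blocks lay below the intervals of both the blocks and the other autosomes. RING1B stood at 0.0284 (0.0158 to 0.0472) in the blocks against 0.341 on the other autosomes, and outside the blocks it had 1 knockdown peak and 21 control peaks. For uH2A mouse the ratio was 0.923 (0.842 to 1.01) in the blocks, 0.196 (0.177 to 0.217) outside them and 0.189 on the other autosomes. For uH2A rabbit it was 0.335 (0.277 to 0.402) in the blocks, 0.322 (0.289 to 0.357) outside them and 0.423 on the other autosomes. The 2 uH2A antibodies thus differed, since uH2A mouse peaks were nearly as many in both conditions inside the blocks while the uH2A rabbit ratios inside and outside had overlapping intervals. Taken over the whole stretch, the ratio ranked first of 22 autosomes for EED and uH2A mouse, 7 for RING1A, 10 for H3K27me3, 18 for BMI1 and 21 for RING1B and uH2A rabbit. Knockdown lists are shorter than control lists and read totals are unknown, so fewer bound places and a shallower library cannot be told apart.

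The share kept compares positions. A control peak was kept where a knockdown peak of the same antibody overlapped it by at least 1 bp. On the other autosomes 5.00% of control peaks were kept for EED, 3.25% for H3K27me3, 3.61% for RING1A, 20.8% for BMI1, 21.3% for RING1B, 29.0% for uH2A rabbit and 9.24% for uH2A mouse. On chromosome 14 the kept control peaks numbered 145 of 1260 for EED (11.5%), 36 of 1739 for H3K27me3 (2.07%), 289 of 6387 for RING1A (4.52%) and 6 of 550 for RING1B (1.09%). They numbered 360 of 2992 for BMI1 (12.0%), 480 of 1917 for uH2A rabbit (25%) and 790 of 3311 for uH2A mouse (23.9%). The difference from the other autosomes was 6.51 points for EED (4.82 to 8.43) and 14.6 points for uH2A mouse (13.2 to 16.1), and both shares ranked first of 22 autosomes. It was -20.2 points for RING1B (-21.7 to -18.4), -8.80 points for BMI1 (-10.1 to -7.45), -4.01 points for uH2A rabbit (-5.98 to -1.94) and -1.18 points for H3K27me3 (-1.79 to -0.379), with ranks of 21, 17, 20 and 10. The H3K27me3 share was below the pooled share but above that of the median other autosome, 1.75%, and without windows of very tall peaks (100-kb windows in which at least 2 other antibodies had a control peak over 10 times their median height, with the windows on either side) its difference was -0.157 points (-0.743 to 0.632). For RING1A it was 0.919 points (0.408 to 1.48), rank 6, and its sign turned to -2.17 points when peaks under the median control height were left out of both lists, which left 77 of the 478 knockdown members. In the first library set 2 of 3 antibodies were above the other autosomes, and in the second 1 of 4.

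Inside the blocks the kept share was above that of the rest of the chromosome for 5 antibodies. Of 963 uH2A mouse control peaks in the blocks 557 were kept, 57.8% (54.6 to 61.0), against 9.92% outside the blocks and 9.24% on the other autosomes. The knockdown peaks of this antibody cover 165.1 kb of the 14.4 Mb of the blocks. EED kept 122 of 518 in the blocks, 23.6% (20.0 to 27.4), against 3.10% outside them. RING1A kept 280 of 2185 in the blocks, 12.8% (11.4 to 14.3), against 9 of 4202 outside them, 0.214%. BMI1 kept 325 of 1894 in the blocks, 17.2% (15.5 to 18.9), against 3.19% outside them. H3K27me3 kept 34 of 832 in the blocks, 4.09% (2.85 to 5.66), against 2 of 907 outside them, 0.221%. For these 5 antibodies the interval of the difference between blocks and the rest of chromosome 14 lay above 0, from 3.87 points for H3K27me3 (2.58 to 5.44) to 47.9 points for uH2A mouse (44.5 to 51.2). For uH2A rabbit, with 26.2% in the blocks and 24.7% outside them, the difference was 1.51 points (-2.91 to 6.20). RING1B kept 5 of 529 in the blocks, 0.945% (0.308 to 2.19), and 1 of 21 outside them. Against the other autosomes the RING1A share of the blocks was 9.21 points higher (7.86 to 10.7), but with peaks under the median control height left out of both lists it was 2.23% in the blocks and 3.35% on the other autosomes. For H3K27me3 that difference was 0.833 points (-0.331 to 2.41), and for BMI1 -3.68 points (-5.42 to -1.81), or -1.38 (-3.12 to 0.479) without windows of very tall peaks. The shares of the proximal and distal blocks had overlapping intervals for each antibody. They were, for example, 59.5% and 54.9% for uH2A mouse and 13.7% and 11.2% for RING1A. For H3K27me3 they were 3.51% (2.22 to 5.27) and 5.83% (3.05 to 9.95). Its difference from the other autosomes was 0.261 points (-0.938 to 2.02) in the proximal block and 2.57 points (0.102 to 6.66) in the distal block.

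**Figure D4:**
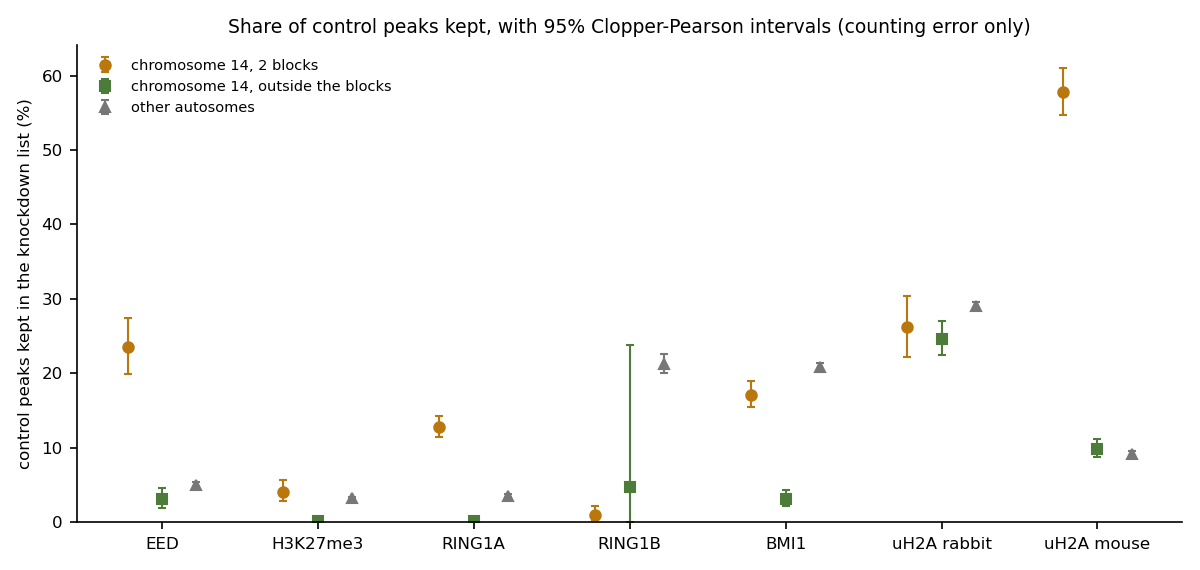
Share of control peaks kept in the knockdown list (vertical axis, percent) for each antibody, in the 2 blocks (circles), on chromosome 14 outside them (squares) and on the other autosomes (triangles), with 95% Clopper-Pearson intervals. The uH2A mouse share is 57.8% in the blocks and 9.92% outside them, while RING1B is at 0.945% in the blocks and 21.3% on the other autosomes.

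Kept shares also varied with peak height. Control peaks were split into 4 classes at the height quartiles of their library. From low to high, uH2A mouse kept 42.1%, 33.0%, 40.2% and 67.8% of block peaks, against 3.64%, 5.12%, 7.19% and 22.95% on the other autosomes. The blocks were above the other autosomes in all 4 classes. For RING1A the blocks kept 11.7%, 6.28%, 7.96% and 15.02%, against 1.01%, 0.376%, 0.689% and 13.4% on the other autosomes, so that the gap was small in the tallest class. For BMI1 the tallest class was 26.4% kept in the blocks and 63.7% on the other autosomes. For RING1B it was 1 of 38 in the blocks and 592 of 1093 on the other autosomes. The tallest class has no upper bound, and windows of very tall peaks held 734 RING1B and 804 BMI1 control peaks of the other autosomes and none of the blocks. Without those windows 15.01% of RING1B control peaks were kept on the other autosomes. For uH2A rabbit the blocks kept 9.64% and 50% in the upper 2 classes, against 19.4% and 61.2% on chromosome 14 outside them, differences of -9.72 points (-15.2 to -3.23) and -11.2 points (-19.6 to -2.59).

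The end segment, which was dense in control cells, did not share the blocks' kept shares. RING1A kept 7 of 1992 control peaks there, 0.351% (0.141 to 0.723), EED 12 of 317, 3.79% (1.97 to 6.52), and BMI1 28 of 471, 5.94% (3.99 to 8.48). H3K27me3 kept 0 of 376, which allows a share of up to 0.798% by 3 counts of the total and 0.976% by the Clopper-Pearson bound, and all 8 of its knockdown peaks there were new, with no H3K27me3 control peak under them. For uH2A mouse 80 of 1175 were kept, 6.81% (5.44 to 8.40). For uH2A rabbit 235 of 830 were kept, 28.3% (25.3 to 31.5), close to its 26.2% in the blocks.

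Knockdown peaks with no control peak of the same antibody beneath them were counted as new. On the other autosomes 43.5% of knockdown peaks were new for EED, 67.2% for H3K27me3, 38.2% for RING1A, 25% for BMI1, 33.5% for RING1B, 30.5% for uH2A rabbit and 49.2% for uH2A mouse. In the blocks the new shares were 36.8% for EED, 70% for H3K27me3, 37.3% for RING1A, 14.5% for BMI1, 21.2% for uH2A rabbit and 34.0% for uH2A mouse, and 10 of 15 RING1B peaks were new. For H3K27me3 and RING1A the share of the blocks was near that of the other autosomes.

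The blocks were not filled evenly. Of their 144 windows of 100 kb, 86 held no H3K27me3 control peak. At least 20 RING1A control peaks were in 39 windows, and 32 of these held no H3K27me3 control peak. In all, 12 windows held at least 20 H3K27me3 control peaks, and 2 windows met both limits. The 7 neighbouring windows from 33.6 to 34.3 Mb held 410 H3K27me3 control peaks beside 42 of RING1A. The 10 windows from 34.9 to 35.9 Mb held 435 RING1A, 310 BMI1 and 168 uH2A mouse control peaks and 0 of H3K27me3, and the 9 windows from 50 to 50.9 Mb held 299, 239 and 124 and again 0. Of H3K27me3 itself, the 12 windows rich in H3K27me3 held 20 knockdown peaks and 545 control peaks, the 39 rich in RING1A 42 knockdown peaks and 120 control peaks, and the 95 windows under both limits 61 knockdown peaks and 226 control peaks. These windows were selected on control counts, so their fall is not read as a result, and per window the knockdown peaks were still most numerous in those rich in H3K27me3. In the 1-Mb windows from 32, 33 and 34 Mb there were 23, 18 and 9 H3K27me3 peaks in the knockdown list and 7, 233 and 277 in the control list. Across the 144 windows, which share their libraries, RING1A and BMI1 control counts had a Spearman rho of 0.93, RING1A and uH2A mouse 0.91 and H3K27me3 and RING1A -0.14. Between the knockdown and control lists the rho over the same windows was 0.90 for uH2A mouse and 0.25 for H3K27me3.

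Of all 1-Mb windows, those from 105, 35 and 50 Mb held the most control peaks over the 7 antibodies, with 194, 283 and 239 knockdown peaks and 1565, 1055 and 849 control peaks. The uH2A mouse list had 67, 169 and 124 knockdown peaks and 367, 170 and 130 control peaks in them, and 31, 104 and 72 control peaks were kept. The fewest control peaks above 0 were in the windows from 87, 83 and 23 Mb, with 1, 1 and 0 knockdown peaks and 8, 9 and 12 control peaks, and the window from 79 Mb tied with 12 control peaks and 0 knockdown peaks.

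Peaks of different antibodies coincided more in the blocks than elsewhere, in stretches that were chosen for many peaks of all 7 control lists. In the control lists, 36 of 42 ordered pairs of antibodies overlapped more on chromosome 14 than on the other autosomes, and the interval of the difference lay above 0 in 33 and below 0 in 4. With the other autosomes weighted to the height classes of the chromosome 14 peaks, 28 of 42 were higher. Of uH2A mouse control peaks in the blocks 91.4% lay on a RING1A peak, against 55.2% outside the blocks and 41.5% on the other autosomes, and 72.7% lay on a BMI1 peak, against 16.8% and 15.01%. Of EED control peaks in the blocks 73.4% lay on a BMI1 peak, against 27.2% outside the blocks and 25.3% on the other autosomes. Of RING1A control peaks 54.1% lay on a BMI1 peak in the blocks, against 15.3% outside them and 20.1% on the other autosomes. Among the pairs that were lower on chromosome 14 was RING1B on H3K27me3, at 10.7% against 27.7% on the other autosomes, a difference of -16.9 points (-19.6 to -13.8), and the share ranked 18 of 22 autosomes. H3K27me3 control peaks lay on EED peaks in 10.2% of cases in the blocks, against 2.65% outside them and 1.71% on the other autosomes.

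In the knockdown lists the pattern was mixed, with 19 of 42 pairs higher on chromosome 14 and intervals above 0 in 16 and below 0 in 18. RING1A knockdown peaks lay on H3K27me3 peaks in 8.996% of cases on chromosome 14, against 57.9% on the other autosomes, and on BMI1 peaks in 24.9%, against 72.8%, each the lowest of 22 autosomes. They lay on uH2A mouse peaks in 33.9%, against 11.5% on the other autosomes, the highest of 22. H3K27me3 and BMI1 knockdown peaks also lay most often on uH2A mouse peaks on this chromosome, in 34.6% against 8.34% and in 34.7% against 9.35%. All 159 BMI1 peaks and all 162 RING1A peaks of that kind were in the blocks. The blocks held 407 of all 458 BMI1 and 467 of all 478 RING1A knockdown members, so most peaks of any kind in these lists lay there. The other autosomes were again counted with their pericentromeres. On chromosome 14, 200 RING1A, 180 H3K27me3 and 271 BMI1 knockdown peaks lay below the limit and were left out. On chromosome 21, for example, 265 of 268 RING1A knockdown peaks lay in the window after its largest step, at 7 Mb. Overlap over like spans was not computed, and these shares and ranks may depend on this.

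Overlapping control peaks of the 7 antibodies merged into 10411 regions on chromosome 14, 3575 of them in the blocks. Regions with peaks of at least 3 antibodies made up 26.8% of regions in the blocks, 12.8% on the rest of chromosome 14 and 10.2% on the other autosomes. Peaks of at least 6 antibodies met in 112 regions, 104 of them in the blocks, 1.08% of all regions on the chromosome against 0.320% on the other autosomes. All 7 antibodies met in 23 regions, each of them in the blocks, and each of the 23 also held a knockdown peak of at least 1 antibody, as did all 88 such regions of the other autosomes. RING1A, RING1B, BMI1 and uH2A mouse without the others met in 86 regions of the blocks and 1 outside them, while the pair of uH2A antibodies alone met in 0 regions of the blocks and 86 outside them.

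Of the regions with 6 or more antibodies, the 10 with the highest summed height rank had all 7, and 3 of them show the range. At chr14:51026601-51027350 (750 bp, distal block) 6 antibodies, all but RING1B, had a knockdown peak. At chr14:33401176-33403950 (2775 bp, proximal block) 5 antibodies had a knockdown peak, all but RING1A and RING1B, and the tallest kept H3K27me3 peak spans it, with a height of 86.9 in the knockdown list and 444.5 in the control list. At chr14:51560001-51562450 (2450 bp, distal block) knockdown peaks were present for both uH2A antibodies and absent for the other 5. None of the 10 had a RING1B knockdown peak.

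The tallest peaks per antibody give single sites. The tallest kept peaks of RING1A, RING1B and BMI1 were at one place outside the blocks, chr14:88237526-88237800, with heights of 393.3, 124.9 and 723.4 in the knockdown lists and 1666, 666.7 and 1330.2 in the control lists. Control medians were 58.6, 63 and 68 in these libraries, and an H3K27me3 peak was there in both conditions. The tallest kept EED peak was at chr14:48034751-48035725 (height 52.0 in the knockdown list, 127.3 in the control list, with 5 other antibodies in control cells) and the tallest kept uH2A mouse peak at chr14:31677051-31677600 (81.2 in the knockdown list, 161.4 in the control list). At that second site lay the tallest lost RING1A peak, at chr14:31677076-31677600 with a height of 205.0, 375 bp from the nearest RING1A knockdown peak. The tallest kept uH2A rabbit peak was at chr14:35832076-35832400 (148.6 in the knockdown list, 219.3 in the control list). The tallest lost peaks were at chr14:33404101-33404700 for H3K27me3 (height 392.8), chr14:32671326-32671525 for BMI1 (212.3), chr14:49795851-49796100 for uH2A mouse (80.2) and chr14:105697251-105697850 for RING1B (153), the last in the end segment. Lost EED and uH2A rabbit peaks were topped by those at chr14:35204151-35204425 (102.3) and chr14:32479101-32479400 (92.8). The tallest new peaks of EED, H3K27me3, RING1A, RING1B, BMI1 and uH2A mouse were all in the blocks, for example chr14:36417551-36417700 for H3K27me3, with a height of 95.9 against a library median of 60 and with RING1A, RING1B and BMI1 knockdown peaks on it. The tallest new uH2A rabbit peak, chr14:104698251-104698725, was in the end segment and had no other antibody in either condition.

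Control peaks in the blocks were taller for 6 antibodies. Median control heights in the blocks and on the other autosomes were 40.5 and 32.2 for EED, 64.8 and 40.8 for H3K27me3, 75.8 and 58 for RING1A, 82.8 and 66.9 for BMI1, 42.7 and 36.2 for uH2A rabbit and 47.7 and 37 for uH2A mouse. RING1B was the exception, at 62 in the blocks and 63 on the other autosomes. In the knockdown lists RING1A stood at 50.2 in the blocks and 53 on the other autosomes and RING1B at 26.5 and 29.3, while the other 5 antibodies were taller in the blocks. Median lengths of control peaks differed by no more than 50 bp, for example 175 and 125 bp for EED. In the knockdown lists the widest gap was for RING1A, at 100 bp in the blocks and 175 bp on the other autosomes.

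The deposited heights hold a second quantity that was not used to choose the region. A height is a whole number less a whole multiple of a constant of its library, and the multiple could be read for 98.2% to 99.99% of heights above 0. No source used here says what the multiple counts. In the control lists its mean per peak in the blocks was 4.73 for EED, 3.27 for H3K27me3, 2.15 for RING1A, 2.31 for BMI1, 4.87 for uH2A rabbit and 3.50 for uH2A mouse. On chromosome 14 outside the blocks it was 1.75, 1.22, 0.865, 0.687, 1.94 and 1.61 for the same antibodies, and on the other autosomes 1.73, 1.01, 0.785, 0.863, 1.79 and 1.51. For these 6 antibodies the blocks were above the other autosomes in each of 4 classes of peak length, while the end segment lay near the other autosomes, at 1.86 for EED and 0.842 for RING1A. For RING1B the mean was 1.45 both in the blocks and on the other autosomes, but this held only with all lengths together. From the shortest to the longest class it was 1.46, 1.34, 1.5 and 1.92 in the blocks. On the other autosomes it was 1.01, 0.970, 1.23 and 2.49, and the longest class had 26 block peaks. In the knockdown lists the mean in the blocks and on the other autosomes was 3.83 and 2.55 for EED, 5.01 and 2.13 for uH2A rabbit and 3.15 and 1.61 for uH2A mouse. It was 1.65 and 1.52 for RING1A and 2.01 and 1.46 for BMI1, but 1.31 and 1.83 for H3K27me3 and 1.27 and 3.26 for RING1B, with 15 block peaks. For H3K27me3 and RING1B the knockdown medians went the other way, at 1 in the blocks and 0 on the other autosomes. Where control peaks of 2 antibodies overlapped in the blocks, their multiples had Spearman correlations of 0.49 to 0.86 over 21 pairs of antibodies, and the overlapping peaks share position and cell line. In the control lists of 6 antibodies, from both library sets, the blocks had more peaks per Mb than the other autosomes and a larger multiple. Density and mean multiple did not go together throughout. The blocks were 25.7 times as dense as the other autosomes for RING1B in control cells, with a like mean. They were 6.81 times as dense for H3K27me3 in knockdown cells, with a lower mean. In both lists, however, the median multiple was 1 in the blocks and 0 on the other autosomes. Of the RING1B control multiples, 33.6% were 0 in the blocks and 63.7% on the other autosomes. Of the H3K27me3 knockdown multiples, 34.2% and 64.75% were 0. The part of the multiple in the densities and kept shares was not tested.

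**Figure D5:**
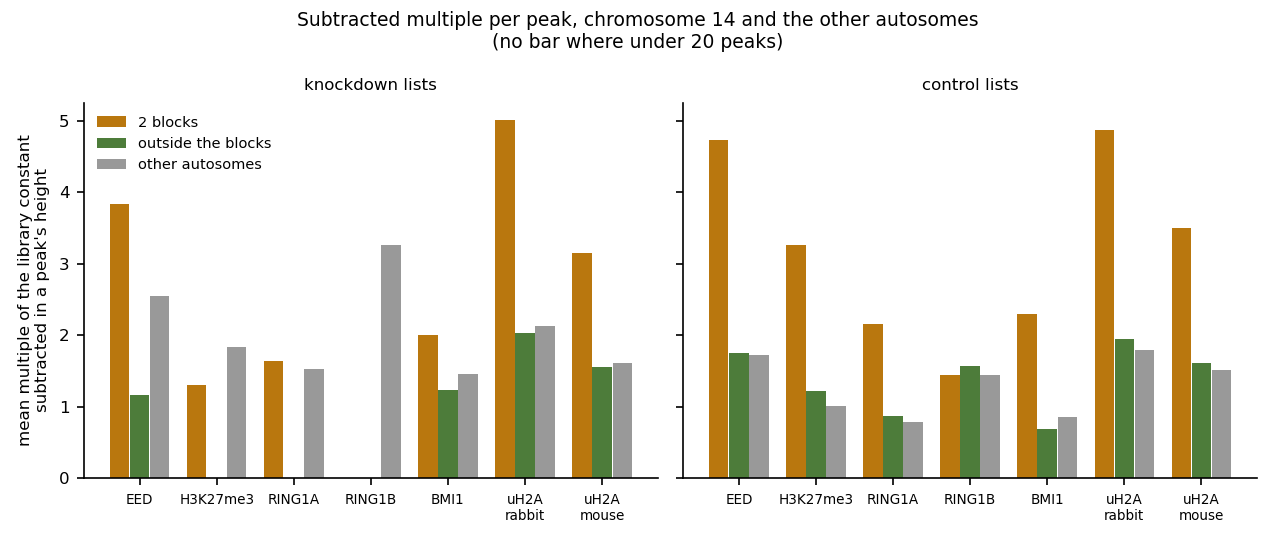
Mean multiple of the library constant subtracted in a peak's height (vertical axis) for the knockdown lists (left) and control lists (right) of each antibody, in the 2 blocks, on chromosome 14 outside them and on the other autosomes; groups of under 20 peaks have no bar. In the control lists the blocks stand above the other autosomes for 6 antibodies, for example 4.73 against 1.73 for EED, and for RING1B both are 1.45.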

How the data were processed

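Each library's peaks were called separately, and the names of the deposited lists give HPeak as the caller. The submitters' processing notes name Bowtie and the build hg19. Libraries were read at 40 nucleotides, per the labels' protocols. The deposited lists have no header, and their columns are read from the values as position, length and height. The height is taken as the peak's signal as deposited, and the deposited score was not used. Heights rank or filter peaks within a library. Groups are 1 library each, so no p-value was computed. The members and lists were chosen with earlier results of these data known. The blocks, their 100-kb windows, the high-signal windows and the multiples were defined after the data were seen. Kept means an overlap of at least 1 bp. Shares carry Clopper-Pearson, differences Newcombe and ratios exact conditional intervals at the 95% level, which treat peaks as independent. A pseudocount of 0.5 was added to window counts, and multiples were matched within 1e-05. The densities use the span up to the last peak end of any list. It starts at 20500 kb on chromosome 14 and at position 0 on the other autosomes. Named peaks follow a rule: the tallest lost, kept and new peak per antibody, the 3 fullest and 3 emptiest 1-Mb windows, and the 10 top regions with at least 6 antibodies, of which 3 are described. Overlap, edges and multiples were tested on simulated data. Genes and sequences are not analysed here, since no hg19 annotation or genome was used. Python 3.11.15, numpy 2.4.6, pandas 2.3.3, scipy 1.17.1 and matplotlib 3.10.9 were used.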

Additional observations from a re-analysis of the deposited data

How the results depend on the processing

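No paired analysis was possible because each group has 1 library. The choices of high-signal windows, of peaks above height 0 and of all block alternatives were made after seeing the data. The knockdown to control ratios of peak number on chromosome 14 for EED, H3K27me3, RING1A, RING1B, BMI1, uH2A rabbit and uH2A mouse (0.194, 0.0748, 0.0748, 0.0291, 0.153, 0.325 and 0.408) became 0.244, 0.103, 0.0184, 0.00385, 0.117, 0.287 and 0.309 in that order with tall peaks alone, those of both lists reaching the control median height. By covered length they became 0.150 for EED, 0.0316 for H3K27me3, 0.0560 for RING1A, 0.138 for BMI1 and 0.350 for uH2A mouse. The share kept, as points above the other autosomes, turned its sign for RING1A on chromosome 14 with tall peaks (-2.17), with 50% overlap (-0.0463) and with the other autosomes weighted to the height classes (-1.12), and in the blocks with tall peaks (-1.12). For H3K27me3 in the blocks, at 0.833 with an interval that spans 0, it also turned negative with tall peaks (-0.463) and with 50% overlap (-1.43, -2.01 to -0.422), and its interval lay above 0 within 1000 bp (1.78, 0.359 to 3.61) and without high-signal windows (1.92, 0.757 to 3.49). With tall peaks it became -2.15 for H3K27me3, -11.4 for RING1B, -12.7 for BMI1 and -7.12 for uH2A rabbit on chromosome 14, and -0.463, -11.8, -11.1 and -8.86 in the blocks, where uH2A mouse had 42.05. With 50% overlap it became 3.53 for EED, -2.00 for H3K27me3, -14.6 for RING1B and 12.5 for uH2A mouse on chromosome 14, and 11.1 for EED, -1.43 for H3K27me3, 4.10 for RING1A, -14.7 for RING1B, -5.50 for BMI1 and 41.95 for uH2A mouse in the blocks. Within 1000 bp it became 1.98 for RING1A, -29.3 for RING1B, -10.8 for BMI1 and 17.3 for uH2A mouse on chromosome 14, and 23.01 for EED, 15.9 for RING1A and -29.4 for RING1B in the blocks. Weighted to height classes it became 4.11 for EED, -2.33 for H3K27me3, -12.7 for RING1B, -17.0 for BMI1, -8.40 for uH2A rabbit and 11.2 for uH2A mouse, and weighted to length classes 0.363 for RING1A, -11.5 for RING1B and -6.22 for BMI1. Without high-signal windows, of which 3 lie on the region and 0 in the blocks, it became -0.157 for H3K27me3, -14.1 for RING1B and -6.53 for BMI1 on chromosome 14, and -14.1 for RING1B and -1.38 for BMI1 in the blocks. In the distal block alone it was 2.57 for H3K27me3 and 7.63 for RING1A. Density against the median other autosome moved by over 1.5 times with tall peaks for uH2A mouse (25.95) and RING1A (2.46) in knockdown lists and for H3K27me3 (2.55) and BMI1 (11.1) in control lists. By covered length it did so for RING1A (3.09), BMI1 (1.92), H3K27me3 (0.736) and RING1B (0.260) in knockdown lists and RING1B (3.25) in control lists. With peaks within 1000 bp merged it did so for RING1A (11.2), H3K27me3 (2.76) and RING1B (0.680) in knockdown lists and RING1B (8.49) in control lists. The largest step lay within 1 Mb of a block edge in 10 of 14 lists, and in 6 with 10 Mb either side. The RING1B multiple in the blocks differed from the other autosomes by -0.57 in the longest of 4 length classes and was above them in the shorter classes. The cause of these changes was not tested. Unknown read totals and 1 library a group limit every comparison.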
